A study of Homo sapiens with 9 samples.

Results

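The genes that hold, move and sense zinc were followed in LNCaP cells, a human line from a metastatic prostate carcinoma, after stimulation with recombinant NRG1, a ligand of the ERBB receptors. They are the metallothioneins MT2A, MT1E, MT1F, MT1G and MT1X, the exporters SLC30A1 and SLC30A10, the importers SLC39A6 and SLC39A10, and the transcription factor MTF1. These 10 genes were chosen by name because earlier results of the same libraries showed the metallothioneins changing while the transporters and MTF1 did not change in step with them. The contrasts between the times therefore chose them, and their levels and fold changes are given as a description, with no test. Of the 10 genes, 9 had a row in the table of 37351 genes, all 9 passed the filter on low counts, and MT1E was not analysed here.

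RNA-seq was performed on 9 libraries, 3 biological replicates each at 0, 12 and 24 h of 15 ng/mL NRG1. All cells of the 3 groups came from 1 line, were plated in triplicate and were kept without serum and calcium before NRG1 was added. No library that spent 12 or 24 h in this medium without NRG1 was analysed here, so NRG1 and time in the medium cannot be told apart. The labels do not say whether the replicates came from separate cultures grown on separate days, and spread between them may be partly technical.

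Metallothioneins are small cysteine-rich proteins that bind zinc and copper in the cytosol. SLC30 proteins carry zinc out of the cytosol, either across the plasma membrane or into vesicles, and SLC39 proteins carry it in. MTF1 binds zinc and then activates metallothionein genes and SLC30A1 through short promoter motifs called metal response elements. Normal prostate epithelium is known for storing much zinc, and prostate carcinoma for having lost it.

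The libraries held 47016302 to 60985825 counts, and 19250 genes had enough counts to be tested. 6 luminal and LNCaP markers, among them KLK3, FOLH1 and HOXB13, were all in the table, and they summed to 3451 to 3524 CPM (counts per 1e+06 counts) at 0 h and to 3267 to 3415 CPM at 24 h. Markers of basal cells and of prostate lines other than LNCaP, such as KRT5 and TP63, summed to at most 0.192 CPM and immune markers to at most 0.435 CPM. Fibroblast markers summed to 24.6 to 28.8 CPM, nearly all from COL1A1, and endothelial markers to 12.7 to 13.7 CPM at 0 h and 6.90 to 7.95 CPM at 24 h, nearly all from VWF. Over the 9 libraries, COL1A2 had 1 read, DCN 11 and PECAM1 5, while COL3A1 had 495, LUM 638 and PDGFRB 375. Whether any RNA of other cell types entered the results below was not tested. All levels below are CPM on library sizes scaled by the trimmed mean of M values, and in a bulk sample fewer cells with a transcript and less of it per cell cannot be told apart.

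The metallothionein mRNAs were lower at 24 h than at 0 h in each of the 4 genes with a row, and in MT2A, MT1G and MT1F, but not in MT1X, most of the fall came after 12 h. Summed over the 11 rows of MT1 and MT2 genes and pseudogenes, they made up 258 ± 28.2 CPM (SD, n = 3) at 0 h, 210.0 ± 12.0 CPM at 12 h and 121 ± 16.1 CPM at 24 h. The sum was thus 18.6% lower at 12 h and 53.2% lower at 24 h than at 0 h, and fell by 42.5% from 12 h to 24 h. By library it was 286, 258 and 229.8 CPM at 0 h, 219.9, 214 and 197 CPM at 12 h and 139, 109 and 114 CPM at 24 h, so that no library of one time reached into the range of another. The sum does not depend on how reads were divided among these 11 rows, while reads dropped or given to genes without a row would alter it.

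MT2A, the most abundant of them, lay on chromosome 16 on the forward strand (GRCh38, chr16:56608584-56609497). Its level was 176, 162 and 146 CPM in the 3 libraries at 0 h, 137, 128 and 120.1 CPM at 12 h and 80.4, 58.4 and 65.4 CPM at 24 h. Every library at 12 h was below every one at 0 h, and every library at 24 h was below all the others. The log2 fold change fitted by edgeR, given with its standard error, was -0.32 ± 0.13 at 12 h and -1.24 ± 0.13 at 24 h against 0 h, and -0.92 ± 0.13 at 24 h against 12 h.

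MT1G, on the reverse strand of the same cluster (chr16:56666730-56668065), followed it closely. The libraries stood at 85.5, 75.7 and 66.9 CPM at 0 h, 65.2, 67.2 and 59.3 CPM at 12 h and 45.6, 39.8 and 37.2 CPM at 24 h. The ranges at 0 h and 12 h touched, through the lowest library at 0 h and the highest at 12 h, while those at 24 h lay apart from both. The log2 fold change was -0.25 ± 0.11 at 12 h and -0.90 ± 0.12 at 24 h against 0 h, and -0.65 ± 0.12 between 12 h and 24 h. The 12 h value was -0.15 without replicate 1 at 0 h and -0.33 without replicate 3 at 0 h.

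MT1F (chr16:56657731-56660698) was less abundant and fell as far as MT2A. Its level was 10.7, 8.95 and 7.06 CPM at 0 h, 8.23, 8.23 and 6.88 CPM at 12 h and 3.81, 4.21 and 3.46 CPM at 24 h. At 12 h the log2 fold change was -0.19 ± 0.12 and the ranges overlapped. That value rested on the libraries at 0 h, with -0.03 without replicate 1 and -0.33 without replicate 3. At 24 h it was -1.22 ± 0.13 against 0 h and -1.02 ± 0.13 against 12 h, with no overlap in either comparison.

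MT1X (chr16:56682470-56684196) changed least of the 4. It was at 12.9, 11.1 and 8.86 CPM at 0 h, 8.62, 8.65 and 9.17 CPM at 12 h and 8.52, 6.36 and 7.05 CPM at 24 h. The 12 h libraries were nearly level with one another and overlapped the 0 h range, and all 3 libraries at 24 h were below all 6 earlier ones. The log2 fold change was -0.32 ± 0.12 at 12 h and -0.59 ± 0.12 at 24 h against 0 h, and -0.27 ± 0.12 between 12 h and 24 h, so that its change from 0 h to 24 h sat at the edge of the 1.5-fold threshold (0.58 on the log2 scale). With a single library left out that value ranged from -0.45, without replicate 1 at 0 h, to -0.72, without replicate 3 at 0 h, and the value at 12 h was -0.18 and -0.44 without the same libraries.

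**Figure D1:**
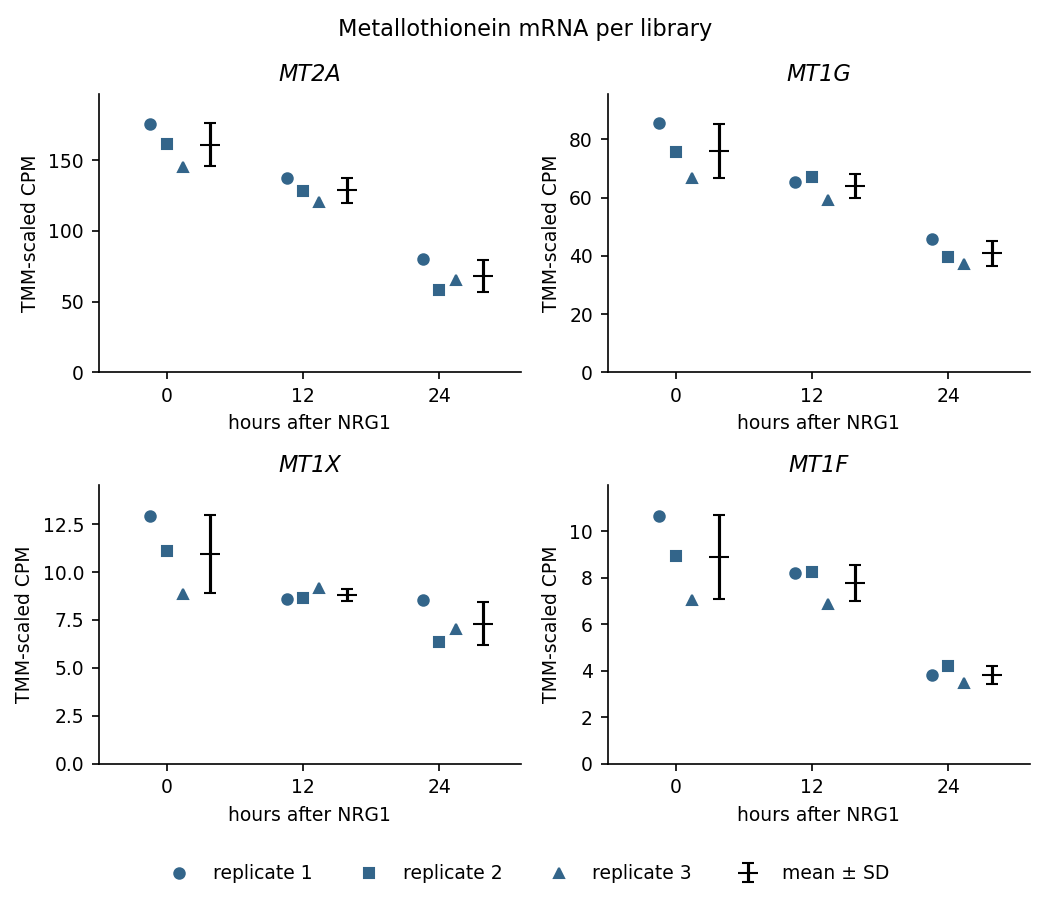
TMM-scaled CPM (y axis, linear from 0, a different range for each gene) of MT2A, MT1G, MT1X and MT1F in each library at 0, 12 and 24 h after NRG1 (x axis), with 1 point a library and the mean ± SD of 3 replicates beside them. In all 4 genes the 24 h libraries lie below every 0 h library, and replicate 1 is the highest and replicate 3 the lowest at 0 h.

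The 4 genes also varied together at 0 h, and less so at the later times. At 0 h, replicate 1 was the highest library and replicate 3 the lowest in each of them. At 12 h replicate 3 was the highest in MT1X and the lowest in MT2A, MT1G and MT1F. At 24 h replicate 1 was the highest in MT2A, MT1G and MT1X, and replicate 2 in MT1F. The share of counts from mitochondrially encoded genes ran the other way at 0 h, with 5.31% in replicate 1, 5.68% in replicate 2 and 6.09% in replicate 3, and its part in these values was not tested. Deviations from the mean of each time correlated between MT2A and MT1G with Pearson's r = 0.80 over 9 libraries that share their scaling. Over pairs of the 4 genes this r ran from 0.40 for MT2A with MT1F to 0.82 for MT2A with MT1X.

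Per length, MT2A and MT1G were the most abundant members at 0 h, and SLC39A6 came next. In CPM per kb of exon, MT2A had 176 ± 16.5 at 0 h and 74.5 ± 12.3 at 24 h, and MT1G had 101 ± 12.4 at 0 h and 54.4 at 24 h, when SLC39A6 had 59.4. MT1X and MT1F, with 6.34 and 4.80 CPM per kb at 0 h, were close to MTF1 (5.16 CPM per kb) on this scale. The length used joins every annotated exon of a gene. In MT2A (914 bases) and MT1X (1727 bases) it equals the whole gene from start to end, any intron included. Their levels per kb may therefore be too low, and ranks on this scale are uncertain. Of the 21 metallothionein genes and pseudogenes listed, 12 had a row and 6 could be tested.

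Among these, the pseudogene MT1DP had few reads and only 150 bases of exon against 1727 in MT1X. On that scale MT1DP was near MT1X, at 6.05 CPM per kb at 0 h. Its level was 0.907 ± 0.165 CPM at 0 h, 0.725 ± 0.295 CPM at 12 h and 0.455 ± 0.145 CPM at 24 h. It fell at 24 h against 0 h with a log2 fold change of -1.002 ± 0.32 (edgeR quasi-likelihood test, adjusted p = 0.0218). Without 1 of 4 libraries this call was lost, with adjusted p-values of 0.05003 without replicate 1 at 0 h, 0.0976 without replicate 3 at 0 h, 0.0557 without replicate 2 at 24 h and 0.118 without replicate 3 at 24 h. MT3 did not pass, with 0.225 CPM at 0 h against 0.131 CPM at 24 h. MT1H had 2 reads over the 9 libraries and MT2P1 had 46, and both were under the filter.

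Metallothionein genes resemble each other, and it was not stated how reads matching several of them were counted. Only the longest transcript of each gene was compared. No stretch of at least 150 bases with at least 95% identity to another gene's was found for MT2A, MT1F or MT1G. MT1X had 1 such match, to a gene without a symbol. Where the longest transcript keeps an intron, a match across joined exons would be broken up. The search therefore cannot exclude longer matches between spliced mRNAs. Shorter stretches were closer, with 98.5% identity over 67 bases between MT2A and MT2P1 and 97.8% over 92 bases between MT1X and MT1XP1, and the division of reads among them is uncertain. None of the 4 genes overlapped another gene of the table. MT2A has 914 bases of exon, and among 186 protein-coding genes with under 1000 bases of exon, the median log2 fold change at 24 h was -0.02, with 3 of them lower than MT2A.

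The promoters of MT2A, MT1X and SLC30A1 are shown because MTF1 is known to act on metallothionein genes and SLC30A1. Whether any match in them is a working site was not tested. RefSeq promoter sequences were matched for 7 of the 10 members, not for MT1E, MT1F or MT1G. The 250 bases before each start site were read for the core of the metal response element, spelled TGCACNC or TGCGCNC, on both strands. The spellings exclude each other on 1 strand, and sites on opposite strands could overlap but did not in these 3 windows. Matches are in capitals, including those that lie on the opposite strand. The MT2A window is chr16:56608334-56608583 (forward strand), the MT1X window chr16:56682220-56682469 (forward strand) and the SLC30A1 window chr1:211579162-211579411 (reverse strand), all of GRCh38.p14.
MT2A: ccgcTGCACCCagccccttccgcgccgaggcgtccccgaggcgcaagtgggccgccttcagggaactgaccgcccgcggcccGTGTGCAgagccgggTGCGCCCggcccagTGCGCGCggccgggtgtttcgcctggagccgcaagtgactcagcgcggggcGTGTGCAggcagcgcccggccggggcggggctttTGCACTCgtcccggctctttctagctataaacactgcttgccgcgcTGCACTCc
MT1X: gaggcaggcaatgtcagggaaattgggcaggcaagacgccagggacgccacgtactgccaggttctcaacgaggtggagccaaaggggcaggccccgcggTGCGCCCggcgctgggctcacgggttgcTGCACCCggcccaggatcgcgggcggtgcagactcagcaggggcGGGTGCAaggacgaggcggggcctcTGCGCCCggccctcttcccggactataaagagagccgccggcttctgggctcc
SLC30A1: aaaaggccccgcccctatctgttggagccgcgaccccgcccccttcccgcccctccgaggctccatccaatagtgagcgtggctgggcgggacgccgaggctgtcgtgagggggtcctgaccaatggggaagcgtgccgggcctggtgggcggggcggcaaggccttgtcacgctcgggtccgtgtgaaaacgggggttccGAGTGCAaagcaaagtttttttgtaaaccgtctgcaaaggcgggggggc

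MT2A held 7 matches, 5 on its own strand and 2 on the other, and MT1X held 4. Of all 35116 promoter windows of this length, 24.8% had at least 1 match, 1.58% at least 3 and 0.37% at least 4. SLC30A1 had 1 match, on the opposite strand, and SLC39A6 had 1. The letters were not in the windows of MTF1, SLC30A10 or SLC39A10. MT2A and MT1X were lower at 24 h than at 0 h and SLC30A1 was higher, so that the 3 windows shown belong to genes with different directions.

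The exporters SLC30A1 and SLC30A10 moved in opposite directions, and both had done so by 12 h. SLC30A1 exports zinc across the plasma membrane and, like the metallothioneins, is a known MTF1 target. Its gene is on the reverse strand of chromosome 1 (chr1:211571568-211579161). It was at 21.4, 16.4 and 16.02 CPM at 0 h, 28.6, 30.6 and 33.1 CPM at 12 h and 35.7, 32.4 and 30.0 CPM at 24 h. All 6 treated libraries were above the highest untreated one, and the 12 h and 24 h ranges overlapped. The log2 fold change was 0.78 ± 0.12 at 12 h and 0.87 ± 0.12 at 24 h against 0 h, and 0.09 ± 0.12 between 12 h and 24 h.

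SLC30A10, best known as a manganese exporter of the cell surface, was the least abundant member, at 0.401 CPM per kb at 0 h. It lay on the reverse strand of chromosome 1 (chr1:219685427-219958647). Its level was 3.32, 4.12 and 3.61 CPM at 0 h, 1.76, 2.08 and 1.84 CPM at 12 h and 1.07, 1.66 and 2.09 CPM at 24 h. All treated libraries were below all untreated ones. The 24 h libraries spread most, from 50 reads in replicate 1 to 109 reads in replicate 3, and their range overlapped that at 12 h. With this spread 12 h and 24 h were not distinguishable, and its source was not tested. The log2 fold change was -0.96 ± 0.17 at 12 h and -1.19 ± 0.18 at 24 h against 0 h.

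Of the other SLC30 genes, SLC30A4 changed most. This transporter, which loads zinc into vesicles, fell in both comparisons with 0 h. It was at 264, 241 and 249 CPM at 0 h, 135, 135 and 133 CPM at 12 h and 111, 108 and 122 CPM at 24 h, so that the 3 times did not overlap. Its log2 fold change was -0.90 ± 0.04 at 12 h (edgeR adjusted p = 7.48e-18) and -1.14 ± 0.04 at 24 h (adjusted p = 9.13e-21) against 0 h, and -0.24 ± 0.04 at 24 h against 12 h (adjusted p = 0.00015). Per length its level of 31.3 CPM per kb at 0 h, and of 14.2 CPM per kb at 24 h, was above both member exporters at each time. SLC30A4 (chr15:45479606-45522755, reverse strand) overlaps HMGN2P46 on the forward strand, which had 6.94% of its counts.

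The remaining exporters changed little or did not pass. SLC30A9 fell by 0.15 on the log2 scale at 24 h (adjusted p = 0.000689), and SLC30A5, which loads the early secretory pathway, fell by 0.10 at 12 h (adjusted p = 0.0363), a call lost in 8 of 16 alternatives, with adjusted p-values of 0.0548 to 0.125 there, among them each replicate at 0 h or 12 h left out. SLC30A3, SLC30A6 and SLC30A7 did not pass in any of the 3 comparisons. Of the 10 SLC30 genes listed, 8 could be tested. SLC30A2 and SLC30A8, with 26 and 2 reads over all libraries, were under the filter.

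The member importers stayed near their starting level. SLC39A6, a zinc importer first described as an estrogen-regulated gene, was the most abundant member importer at 61.3 CPM per kb at 0 h. It was at 229, 229.6 and 219 CPM at 0 h, 224, 216 and 213 CPM at 12 h and 214, 224 and 218 CPM at 24 h (chr18:36108531-36129385, reverse strand). The times overlapped throughout, and the log2 fold change at 24 h against 0 h was -0.04 with a 95% interval from -0.11 to 0.02. SLC39A6 also had a near-identical match to 1 gene without a symbol, so reads could have been divided between them.

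SLC39A10, which forms a pair with SLC39A6 at the plasma membrane, was more variable. It was at 62.9, 75.2 and 81.4 CPM at 0 h, 66.2, 63.6 and 58.8 CPM at 12 h and 58.2, 64.1 and 74.9 CPM at 24 h (chr2:195575977-195737702, forward strand). The ranges overlapped in each comparison, and the log2 fold change at 24 h against 0 h was -0.15 with a 95% interval from -0.46 to 0.16. Across libraries of the same time SLC39A10 deviated against SLC30A1, with r = -0.94 between their deviations over 9 libraries. It was the largest r in size among all pairs of members, and a value chosen in this way tends to be large. It describes libraries that share depth and scaling.

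Other SLC39 genes moved by small amounts. SLC39A4, an importer of the plasma membrane, had 37.5 ± 0.198 CPM at 0 h, 43.5 ± 1.84 CPM at 12 h and 48.0 ± 2.03 CPM at 24 h, a rise with a log2 fold change of 0.21 (edgeR adjusted p = 0.000472) and 0.36 (adjusted p = 9.18e-08). SLC39A8, which also carries cadmium and manganese, rose by 0.13 at 12 h (adjusted p = 0.0162) and by 0.27 at 24 h (adjusted p = 2.43e-06). SLC39A3 was higher at 24 h by 0.21 (adjusted p = 0.000145), and SLC39A7, which releases zinc from the endoplasmic reticulum, fell by 0.12 at 12 h (adjusted p = 0.0237) and by 0.13 at 24 h (adjusted p = 0.0154). The 12 h call of SLC39A8 was lost without replicate 1 at 12 h (adjusted p = 0.0941). Both calls of SLC39A7 were lost without replicate 2 at 0 h, replicate 3 at 0 h, or replicate 1 or 3 of the later time, with adjusted p-values of 0.0670 to 0.159 at 12 h and of 0.0661 to 0.121 at 24 h.

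By counted reads, SLC39A7 was the most abundant importer at 68.5 CPM per kb at 0 h, and the overlapping gene RXRB had 20.7% of its counts. SLC39A1 and SLC39A9, which did not pass in any comparison, also overlap other genes. CREB3L4 had 3140% of the counts of SLC39A1, and ERH had 106% of those of SLC39A9. Reads shared with such genes could alter this ranking. SLC39A11 was higher at 24 h than at 12 h by 0.19 (adjusted p = 0.0123) and did not pass against 0 h. That call was lost without replicate 1 at 12 h (adjusted p = 0.0945) or replicate 2 at 24 h (adjusted p = 0.0553). Of the 14 SLC39 genes listed, 11 could be tested. SLC39A6 and SLC39A10 included, 3 passed the adjusted p at 12 h and 4 at 24 h against 0 h, where 18.7% and 21.1% of all tested genes did. None of the 11 passed the 1.5-fold threshold as well in edgeR or in DESeq2, with 5 and 4 genes at an unadjusted p under 0.05 in edgeR. At 24 h against 0 h these changes were smaller than those of the 4 metallothioneins and of SLC30A1, SLC30A4 and SLC30A10.

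**Figure D2:**
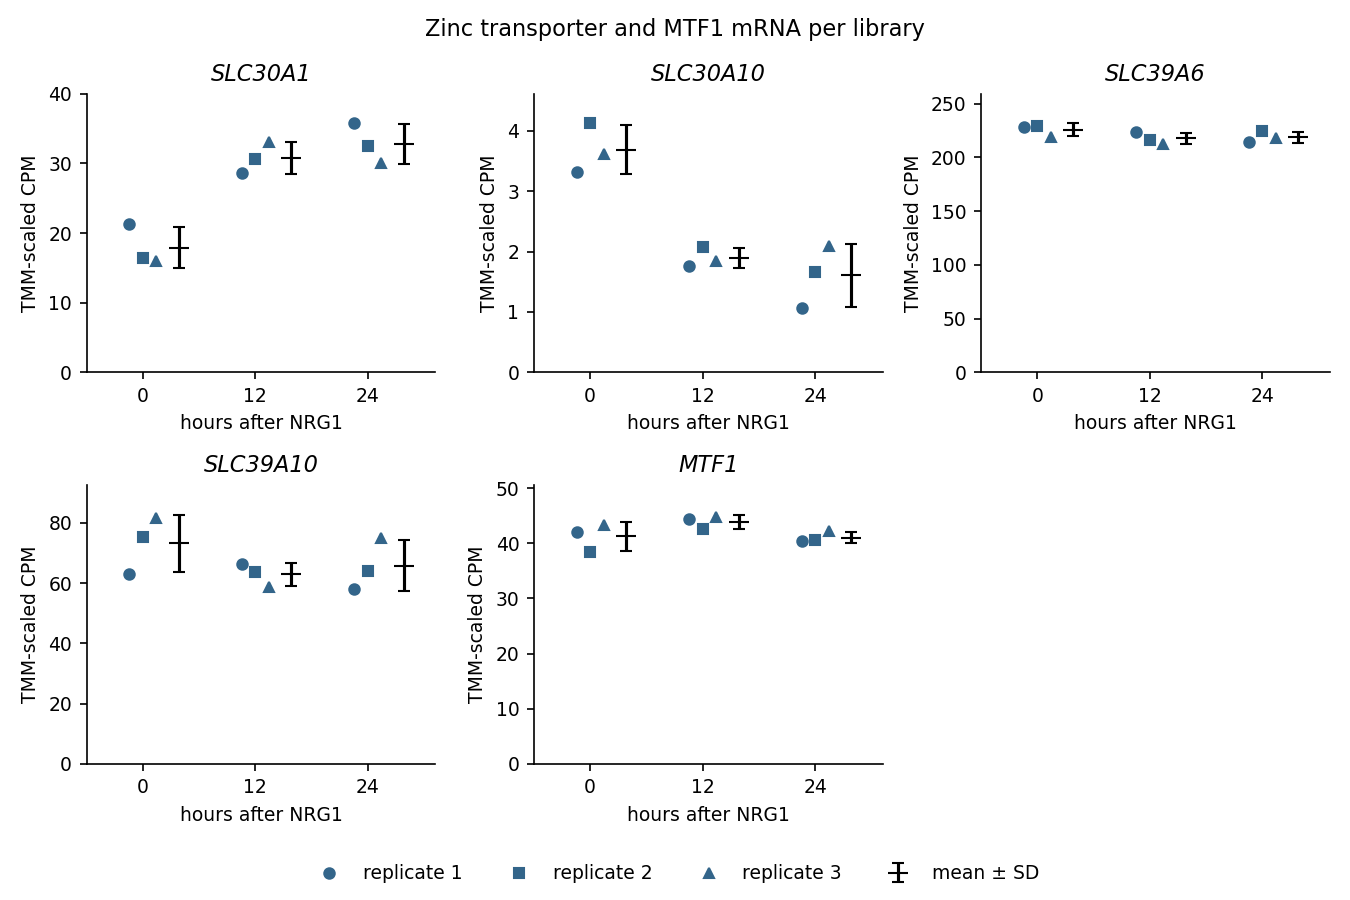
TMM-scaled CPM (y axis, linear from 0, a different range for each gene) of SLC30A1, SLC30A10, SLC39A6, SLC39A10 and MTF1 in each library at 0, 12 and 24 h after NRG1 (x axis), with 1 point a library and the mean ± SD of 3 replicates beside them. SLC30A1 is higher and SLC30A10 lower in all treated libraries than in any library at 0 h, while the ranges of the other 3 genes at 12 h and 24 h overlap those at 0 h.

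MTF1, the zinc-responsive activator of metallothionein transcription, had similar mRNA levels at the 3 times. It was at 42.1, 38.4 and 43.2 CPM at 0 h, 44.4, 42.5 and 44.8 CPM at 12 h and 40.4, 40.6 and 42.2 CPM at 24 h (chr1:37809574-37859592, reverse strand). Both later times overlapped 0 h, and the libraries at 24 h were just below those at 12 h. The log2 fold change at 24 h against 0 h was -0.01 with a 95% interval from -0.10 to 0.09, and at 12 h it was 0.09 ± 0.05. ZNF658, a zinc finger protein reported to repress zinc-dependent genes, did not pass in any comparison. Its values and those of MTF1 are levels of mRNA, and zinc, protein and MTF1 activity were not measured in these libraries.

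Set against the table as a whole, the counts of members that passed were as follows. With an adjusted p of at most 0.05 and at least 1.5-fold, 2 of 9 members passed at 12 h against 0 h (SLC30A1 higher and SLC30A10 lower), where 2.37% of all tested genes did, and 18.7% passed the adjusted p alone. At 24 h against 0 h, 6 of 9 passed (SLC30A1 higher, SLC30A10 and the 4 metallothioneins lower), where 3.31% of all tested genes did, and 21.1% passed the adjusted p alone. Between 12 h and 24 h, 3 of 9 passed (MT2A, MT1F and MT1G lower), where 0.452% of all tested genes did, and 6.08% passed the adjusted p alone. The replicates at 24 h and 0 h did not overlap in 6 of 9 members and in 33.5% of all tested genes. DESeq2 called 5 of 9 members at 24 h against 0 h, as MT1X, at -0.58, then missed 1.5-fold. Because the members were chosen with these contrasts known, nothing is read from these counts. The count between 12 h and 24 h changed with the libraries kept. Without replicate 3 at 24 h only 1 of 9 members passed between 12 h and 24 h. With any 1 library left out, the log2 fold change there was -1.06 to -0.82 for MT2A. It was -1.10 to -0.95 for MT1F and -0.73 to -0.58 for MT1G.

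The median log2 fold change of the 4 metallothioneins was -0.28 at 12 h and -1.06 at 24 h against 0 h, and -0.78 between 12 h and 24 h. Over all tested genes the median was -0.01 in both comparisons with 0 h. None of the 4 metallothioneins passed at 12 h in edgeR or DESeq2, and 2 had an unadjusted p under 0.05 in edgeR.

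The other genes of the 3 families were read from lists of complete families. Of 36 such genes, 17 could be tested. At 12 h against 0 h, 2 rose and 3 fell by the adjusted p, which 18.7% of all tested genes passed. At 24 h 3 rose and 4 fell, where 21.1% of all tested genes passed. Among the 17, only SLC30A4 at 12 h, and SLC30A4 with MT1DP at 24 h, passed the 1.5-fold threshold too. Between 12 h and 24 h, 3 rose and 1 fell by the adjusted p, which 6.08% of all tested genes passed. Of the 17, 0 then passed the fold threshold in edgeR or DESeq2, with 7 at an unadjusted p under 0.05 in edgeR. The median log2 fold change of the 17 was -0.06, 0.01 and 0.06 in the 3 comparisons.

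**Figure D3:**
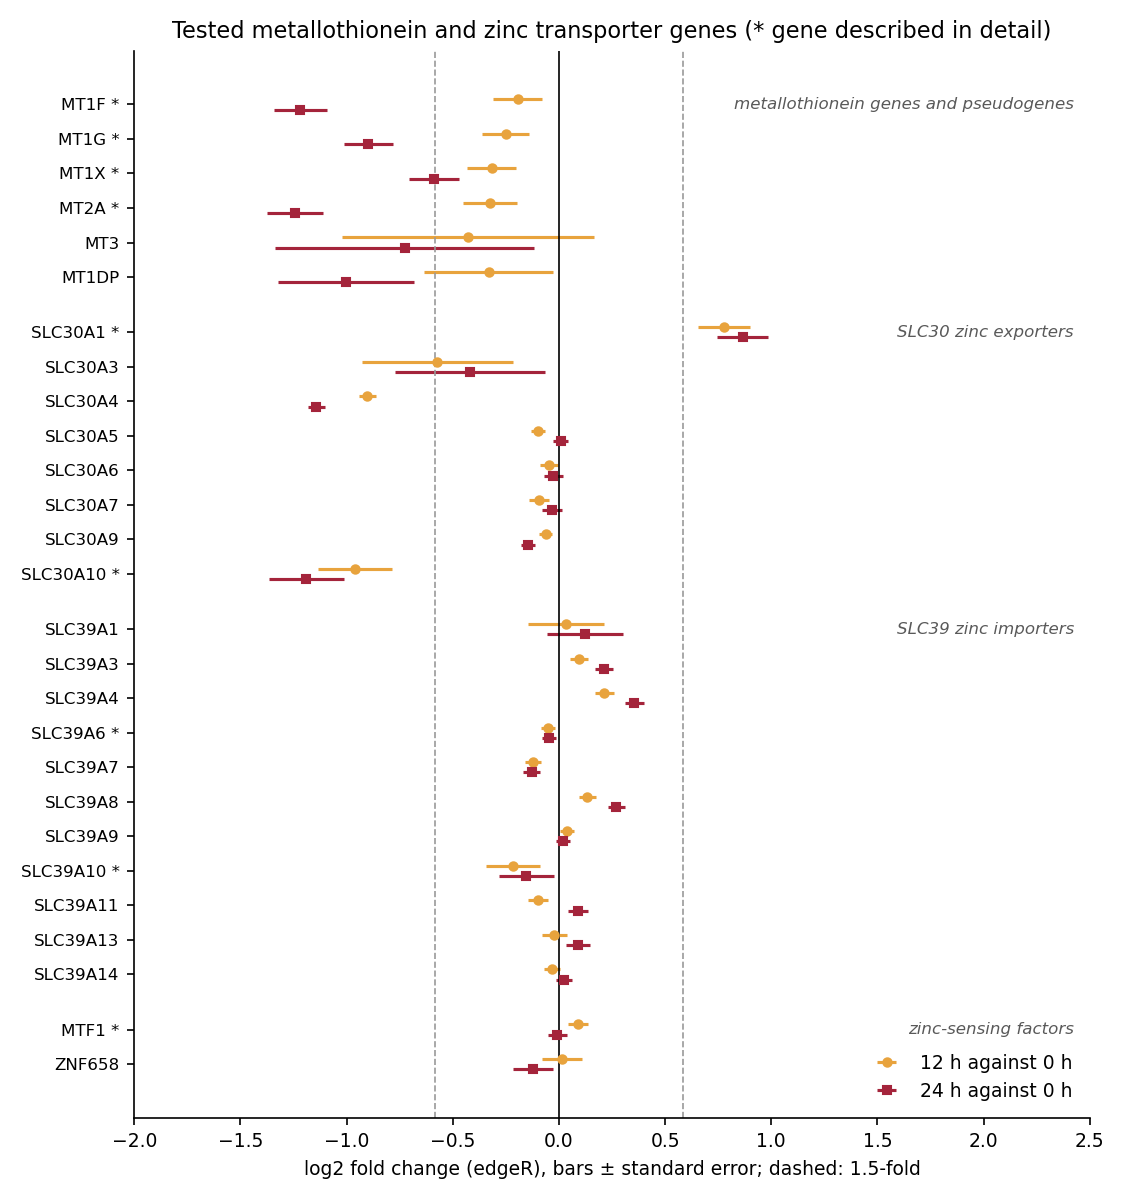
Log2 fold change with its standard error (x axis) for the 27 tested metallothionein, SLC30, SLC39 and zinc-sensing genes (y axis, members with an asterisk) at 12 h and 24 h against 0 h, with dashed lines at 1.5-fold. The metallothioneins extend to the left at 24 h, SLC30A1 alone lies to the right of the dashed line, SLC30A4 and SLC30A10 lie to the left at both times, and the importers stay between the lines.

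Across the 9 libraries, the members sorted by their likeness to MT2A. Pearson's r of log2 CPM with MT2A was 0.98 for MT1G, 0.95 for MT1F, 0.88 for MT1X, 0.67 for SLC30A10, 0.36 for SLC39A6, 0.17 for MTF1, 0.16 for SLC39A10 and -0.66 for SLC30A1. These values describe 3 groups of 3 libraries and mostly restate the differences between times. Among the 11399 genes whose log2 CPM averaged 2 or more, the 5 most like MT2A were DSG2 (r = 0.985), MT1G (0.984), DEGS1 (0.977), TFPI (0.974) and TSC22D1 (0.973). DSG2, a cadherin of desmosomes, was at 303 CPM at 0 h, 291 CPM at 12 h and 255 CPM at 24 h, and DEGS1, a ceramide desaturase, was at 179, 159 and 131 CPM. In both, as in MT2A, the difference between 12 h and 24 h was larger than that between 0 h and 12 h.

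The metallothionein members lie in a cluster on chromosome 16, and its neighbours were read to see how far the fall extended. The 8 metallothionein rows there span 95.1 kb (chr16:56589074-56684196), and 7 other tested genes within 250 kb of it were read. Of these, 2 passed the adjusted p at 12 h, 3 at 24 h and 1 between the times, where 18.7%, 21.1% and 6.08% of all tested genes did. At 24 h 1 of the 7 passed the 1.5-fold threshold as well, where 3.31% of all tested genes did. It was NUP93 (chr16:56730118-56850286), which encodes a nuclear pore protein and starts beyond MT1X.

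NUP93 was at 416, 434 and 457 CPM at 0 h, 298, 291 and 301 CPM at 12 h and 221, 212 and 225 CPM at 24 h. Its times did not overlap, and its log2 fold change was -0.56 at 12 h (edgeR adjusted p = 4.12e-15), -0.99 at 24 h (adjusted p = 1.44e-22) and -0.44 between them (adjusted p = 3.04e-11). Most of its log2 change had been reached by 12 h, and most of that of MT2A and MT1F came later. HERPUD1, a protein of endoplasmic reticulum stress, fell by 0.29 at 12 h (adjusted p = 0.00862, and 0.0542 without replicate 2 at 0 h) and by 0.31 at 24 h (adjusted p = 0.00535). OGFOD1 on the other side rose by 0.17 at 24 h (adjusted p = 0.00746), a call lost without replicate 1 at 0 h (adjusted p = 0.0597) or replicate 2 at 24 h (adjusted p = 0.0507). NUDT21, BBS2, GNAO1 and NUP93-DT did not pass.

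**Figure D4:**
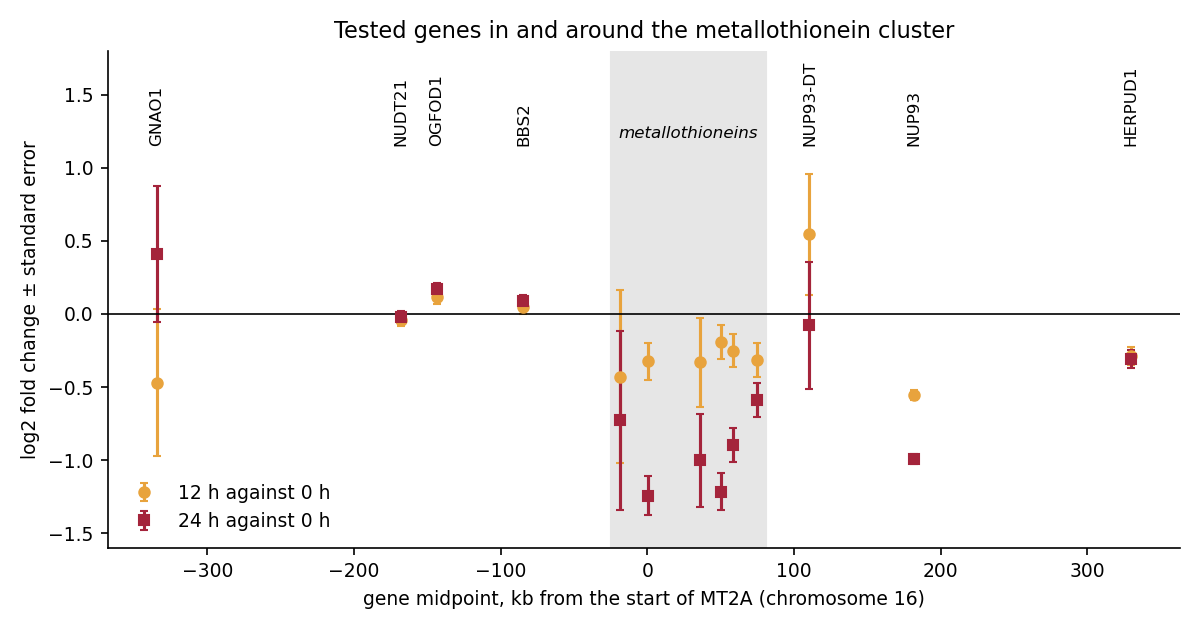
Log2 fold change with its standard error (y axis) of the tested genes of the chromosome 16 cluster and of its neighbours, by the distance of the gene's midpoint from the start of MT2A in kb (x axis), at 12 h and 24 h against 0 h. The metallothioneins (grey band) are lower at 24 h than at 12 h, NUP93 to the right is also lower, and the genes to the left lie near 0 apart from the widely spread GNAO1.

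Other genes that metals or the same regulators are known to act on were counted from lists chosen with earlier results known. In all these lists, rises and falls are counted by the adjusted p. Of all tested genes, 18.7% passed it at 12 h and 21.1% at 24 h against 0 h, and nothing is read from the counts of the lists. Of 12 tested targets of metal and oxidative stress, 3 rose and 1 fell at 12 h against 0 h and 2 rose and 1 fell at 24 h. OSGIN1, an oxidative stress response gene, was the only one past 1.5-fold, with 5.79 ± 0.498 CPM at 0 h, 10.4 ± 0.344 CPM at 12 h and 10.4 ± 0.214 CPM at 24 h (log2 fold change 0.84 at both times, adjusted p = 1.15e-09 and 7.09e-10). HMOX1, heme oxygenase and a classic cadmium-induced gene, did not pass, with 11.5 ± 1.92 CPM at 0 h against 9.57 ± 0.857 CPM at 24 h.

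Of 10 tested genes of copper handling, the other metal that metallothioneins bind, 1 rose and 2 fell at 12 h, and 1 rose at 24 h. ATOX1, the cytosolic copper chaperone, rose by 0.20 at both times, and its 24 h call was lost without replicate 1 at 24 h (adjusted p = 0.0525). Of 10 tested genes of iron handling, 3 rose and 1 fell at 12 h and 3 rose at 24 h. TFRC, the transferrin receptor, rose to 611 ± 3.11 CPM at 12 h and 632 ± 5.27 CPM at 24 h, against 528 ± 6.46 CPM at 0 h, by 0.21 and 0.26 on the log2 scale. FTH1, ferritin heavy chain, fell by 0.10 at 12 h and was higher by 0.10 at 24 h. Its 12 h call was lost without replicate 1 or 2 at 0 h or replicate 2 or 3 at 12 h (adjusted p = 0.0679 to 0.143), and its 24 h call without replicate 3 at 0 h or replicate 1 at 24 h (adjusted p = 0.0983 and 0.112).

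Glucocorticoids also induce metallothioneins, and 6 genes known to respond to their receptor, though not to it alone, were tested. At 12 h 1 rose and 3 fell, and at 24 h 2 fell. FKBP5, a chaperone partner of steroid receptors, rose by 0.23 at 12 h (adjusted p = 5.71e-05) and did not pass at 24 h, where its log2 fold change was 0.10. TSC22D3, which encodes the glucocorticoid-induced leucine zipper, fell, with 262 ± 12.4 CPM at 0 h, 205 ± 6.63 CPM at 12 h and 191 ± 4.34 CPM at 24 h (log2 fold change -0.36 and -0.46, adjusted p = 8.68e-10 and 1.04e-12). ZBTB16 fell by 0.28 and by 0.40 at the same times. Of 6 tested genes of citrate handling, a pathway that zinc slows in normal prostate, 3 rose at 12 h, with IDH3A at 0.26, and 1 rose and 1 fell at 24 h.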

How the data were processed

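Per the study's methods, adapters were trimmed with Cutadapt, read pairs were aligned to GRCh38 with STAR and genes were counted with featureCounts. How strand and multi-mapping reads were treated in counting was not given in the sources used here. The authors deposited raw counts per gene, 1 column per library, without normalization, and 14 empty columns were not used. Groups and replicate numbers came from the sample titles.

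Genes were kept with filterByExpr on the groups (19250 of 37351) and libraries scaled by the trimmed mean of M values (TMM). The counts of all 9 libraries were fitted with the robust quasi-likelihood test of edgeR 4.0.16 in R 4.3.3, without covariates, with Benjamini-Hochberg adjustment over all tested genes. A gene passed at an adjusted p of at most 0.05 and, where stated, at least 1.5-fold. DESeq2 1.42.0, other scalings, filters and thresholds, the replicate number as a block and leaving out each library were alternatives. Correlations used log2 CPM with a prior count of 2. Reads carry no molecular identifiers, so precision from depth covers counting error only. The fit was tested on simulated data.

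The members and all lists were chosen with earlier results of these data known. Genes named are the 10 members, each further gene of the 3 families past the adjusted p, up to 4 of each other list with the largest change past the adjusted p, and the 5 genes most like MT2A. HMOX1, the neighbours of the cluster and family genes named as not passing were chosen after their values were seen. A neighbour of the cluster and 1 marker are not reported here. CPM per kb divides CPM by the joined length of all exons of a gene in a separate GENCODE annotation, which also gave the strands. Coordinates are those of the table (GRCh38), promoters are from RefSeq (GRCh38.p14), and similar transcripts were sought with BLAST 2.17.0.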

Additional observations from a re-analysis of the deposited data

Results flagged for a closer look

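Some genes that are not members changed between the later times, so that their effects at 12 h and 24 h differed, tested as the contrast of 24 h against 12 h in edgeR. Each is given with its log2 fold change and adjusted p in that contrast. Among transporters, SLC30A4 was lower at 24 h (-0.24, adjusted p = 0.00015), and SLC39A4 (0.14, adjusted p = 0.0482), SLC39A8 (0.14, adjusted p = 0.0303) and SLC39A11 (0.19, adjusted p = 0.0123) were higher. Of the other lists, SLC7A11, the cystine transporter, was higher (0.35, adjusted p = 0.0429), as was FTH1 (0.19, adjusted p = 6.06e-05). FKBP5 (-0.13, adjusted p = 0.0422) and ACLY, ATP citrate lyase (-0.21, adjusted p = 8.71e-05), were lower. NUP93, beside the metallothionein cluster, was lower (-0.44, adjusted p = 3.04e-11). The calls of SLC39A4, SLC39A8, SLC39A11, SLC7A11 and FKBP5 were lost in 8, 5, 2, 7 and 7 of 16 alternatives. The members were chosen for such a contrast and are not listed.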

How the results depend on the processing

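The members' log2 fold changes, under 16 alternatives, and those of the summed metallothioneins, under 17, moved by less than the spread between replicates. For the libraries left out this nearly follows from arithmetic, since 1 of 3 replicates can hardly move a mean by that spread. Stability is therefore not read from it. None of those called changed sign. Counts of calls changed with the settings. Without a fold threshold, 5 other family genes passed at 12 h against 0 h, 7 at 24 h against 0 h and 4 at 24 h against 12 h, in place of 1, 2 and 0. Of all tested genes, 18.7%, 21.1% and 6.08% passed without it. With at least 2-fold, 0, 3 and 1 members passed in these comparisons in edgeR, in place of 2, 6 and 3, and 0 other family genes passed at 12 h. At an unadjusted p under 0.05, 4 members and 7 other family genes were below it at 12 h. With each library left out in turn, 5 to 6 members passed at 24 h against 0 h. Between 12 h and 24 h, 1 to 3 did, with 1 only without replicate 3 at 24 h. Other family genes past both thresholds at 24 h against 0 h numbered 1 to 2, with 1 without replicate 1 or 3 at 0 h or replicate 2 or 3 at 24 h, where MT1DP was lost. The lost calls rest on fewer libraries. Their cause was not tested further.

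Same-numbered replicates did not pair: over 9 pairs their deviations correlated with r from -0.04 to 0.03, and 2 of 9 libraries correlated best with their own number. With the replicate block, 2, 5 and 3 members passed in the 3 comparisons and the summed metallothioneins fell by 0.29, 1.10 and 0.80 on the log2 scale. Over the genes that the naming rule covers and the neighbours of the cluster, members aside and not all of them described, 55 calls were made, of which 32 held in every alternative and 23 were lost in some. Genes under about 1 CPM, such as MT1DP and MT3, are limited by depth, and SLC30A10 at 24 h rests on 50 to 109 reads a library.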
